A study of Mus musculus with 10 samples.

Results

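The D-type cyclin genes Ccnd1, Ccnd2 and Ccnd3 were examined for TET2 occupancy in mouse embryonic stem (ES) cells. These are 3 of 21887 protein-coding genes. They were chosen from the peak lists themselves, since Ccnd3 was known to carry several regions with target peaks and no control peak, so presence of peaks near them is given as a description, with no test. A peak was counted for a gene if it overlapped the gene's protein-coding span, or lay within 50 kb and nearer to it than to any other span. That gave 109 of 209774 peaks, which form 38 of 79350 regions once peaks of the different lists that touch are merged.

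TET2 oxidises 5-methylcytosine in DNA and was mapped by chromatin immunoprecipitation and sequencing (ChIP-seq). A rabbit polyclonal antibody raised against the TET2 N terminus was applied to wild-type cells, which are Tet2fl/fl and thus carry floxed Tet2 alleles, and to Tet2-/- knockout cells. FLAG M2 affinity gel was used on Tet2fl/fl cells that express 2x-Flag tagged TET2 from the endogenous locus (tagged cells), and on untagged Tet2fl/fl parental cells. All cells grew in serum with LIF, 3 μM of the GSK-3 inhibitor CHIR99021 and 1 μM of the MEK1 inhibitor PD0325901. Each of the 4 groups had 2 libraries, each with its own peak list. The labels do not say whether replicates were separate cultures or how many clones each line represents. The lists hold binding and no expression, so the cell type was taken from the labels.

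Wild-type and tagged lists are called target lists, and knockout and parental lists, from cells labelled as lacking Tet2 or the tag, control lists. The lists differed widely in length, from 2261 peaks in knockout replicate 1 to 63612 in tagged replicate 1, and parental replicate 1 alone held 36549. Read depth is not given in the sources used here, so a peak missing from a short list may have been below its detection limit. A region with peaks in each target list and no control list is called a common TET2 region. The fold given for each peak is the authors' enrichment at the summit, a linear ratio. The peak names carry the word IgG, but what the ratio was taken over is not given in the sources used here. The percentile given with it ranks the peak by −log10 q within its own list, and neither is read as a difference in signal between lists.

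D-type cyclins are the regulatory subunits of the kinases CDK4 and CDK6. They are made in response to growth factors, and the active kinases phosphorylate the retinoblastoma protein RB, which releases E2F transcription factors and lets the cell leave G1. MEK-ERK signalling is a known inducer of Ccnd1 transcription, and GSK-3 is known to phosphorylate cyclin D1 and mark it for export and breakdown. ES cells in serum and LIF are known for a short G1 phase with little restraint by RB. Whether this holds with the inhibitors used here was not measured.

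Ccnd3 held 6 common TET2 regions among its 23 merged regions, Ccnd2 held 1 among 9, and Ccnd1 held 0 among 6. With each list shortened to the 2259 leading peaks that the shortest allows, none of the 3 genes held one, and the share of all genes at that length is not given here. With full lists, 5.70% of merged regions over the whole series were common. Because the genes were chosen with these regions known, nothing is read from that difference. At Ccnd1 the control lists held as many peaks as the target lists, 14 against 13, but with a −log10 q of at least 5 the order turned to 9 against 12. Of its regions 5 had a control peak, against 4 at Ccnd2 and 7 at Ccnd3, and 50.7% of all merged regions had one. Regions with a peak in each target list numbered 2 at Ccnd1, 1 at Ccnd2 and 7 at Ccnd3 (15.0% of all). Regions found in 1 list alone numbered 3, 5 and 6 (39.6% of all).

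At Ccnd3, 14 and 8 peaks were in the wild-type lists (replicates 1 and 2), 21 and 12 in the tagged, 0 and 1 in the knockout and 7 and 3 in the parental lists. All target lists had more peaks there than any control list, although the margin between wild-type replicate 2 and parental replicate 1 was a single peak and the latter list was the longer. At Ccnd2, wild-type replicates held 6 and 2 peaks, tagged replicates 2 and 1, knockout replicates 1 and 3, and parental replicates 1 and 0. Target and control lists overlapped. At Ccnd1, wild-type replicates held 3 and 3 peaks, tagged replicates 4 and 3, knockout replicates 2 and 4, and parental replicates 5 and 3. The lists overlapped fully there, with 13 target and 14 control peaks in sum. The median gene with any region held between 0 peaks, in knockout lists and parental replicate 2, and 2, in tagged replicate 1.

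**Figure D1:**
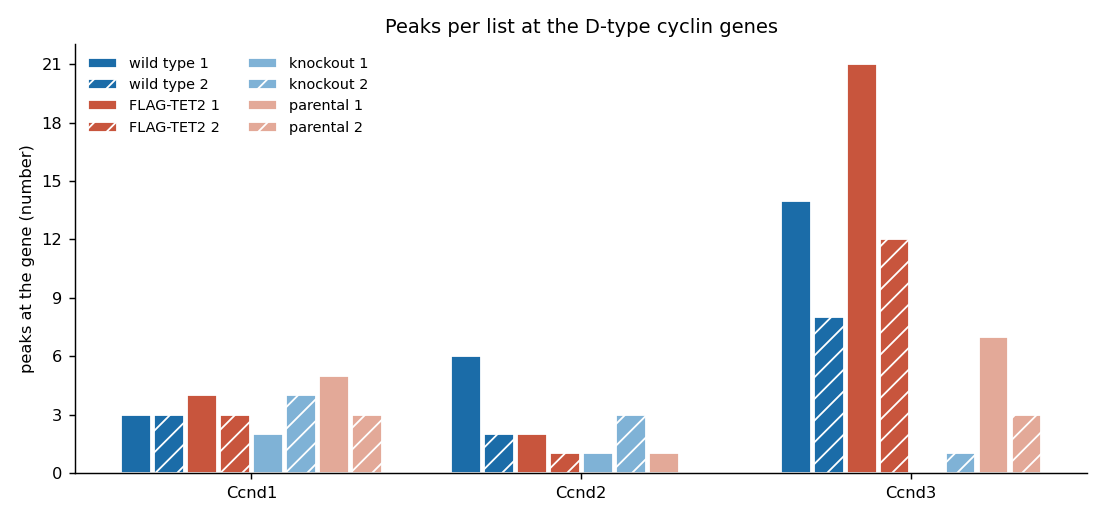
Number of peaks at each D-type cyclin gene (vertical axis) in each of the 8 lists, with replicate 2 of each group hatched. At Ccnd3 the target lists hold 8 to 21 peaks and the control lists 0 to 7, whereas at Ccnd1 every list holds 2 to 5.

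Ccnd3 encodes cyclin D3, the family member known for its part in lymphocyte precursors. Its span covers chromosome 17, 47505051 to 47599689 (mm10, 94.6 kb). RefSeq places a first annotated start at 47505051 and a second, inside the gene, at 47593467. The RefSeq promoter windows, which use GRCm38.p6 (mm10) coordinates, run from 250 bases before each start to 50 after it, on the plus strand. They are printed to show which bases at the 2 starts lay inside a peak of any list, in capitals. The first window is chr17:47504801-47505100 and the second chr17:47593217-47593516.
Ccnd3 first start: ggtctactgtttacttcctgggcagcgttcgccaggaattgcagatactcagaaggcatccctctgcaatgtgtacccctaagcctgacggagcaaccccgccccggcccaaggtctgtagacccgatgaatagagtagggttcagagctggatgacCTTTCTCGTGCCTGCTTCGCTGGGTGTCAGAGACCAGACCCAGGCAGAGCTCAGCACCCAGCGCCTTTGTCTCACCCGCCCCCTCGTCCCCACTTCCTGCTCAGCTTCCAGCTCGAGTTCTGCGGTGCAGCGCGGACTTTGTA
Ccnd3 second start: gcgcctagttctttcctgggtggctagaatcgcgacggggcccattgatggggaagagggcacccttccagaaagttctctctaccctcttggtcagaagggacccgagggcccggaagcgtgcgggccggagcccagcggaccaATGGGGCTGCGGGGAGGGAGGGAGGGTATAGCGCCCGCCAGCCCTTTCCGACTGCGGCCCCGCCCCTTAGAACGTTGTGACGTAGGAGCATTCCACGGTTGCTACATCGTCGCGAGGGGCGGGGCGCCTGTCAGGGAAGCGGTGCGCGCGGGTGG

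The 143 capital bases of the first window came from 1 peak, in parental replicate 1, with a fold of 5.37. No target list had a peak there. The 155 capital bases of the second window came from peaks of wild-type replicate 1 and both tagged replicates. They belong to a region (47593362 to 47594197) that also held a peak of each parental list past the window. Its folds were 8.38 in wild-type replicate 1, 8.74 and 5.77 in tagged replicates, and 7.35 and 5.69 in parental replicates 1 and 2. Neither start thus touched a common TET2 region, as was the case for nearly all of the 32851 RefSeq windows, of which 0.959% touched a common region and 27.8% a control peak. The windows held 15 and 28 CG dinucleotides, the substrate context of TET2 when methylated, against a median of 7 over all windows. Fewer were held by 65.4% and 85.8% of all windows, respectively. Each held 2 GC boxes (GGGCGG, both strands), a motif found in 35.7% of all windows. The second held 1 CCAAT motif (both strands), found in 37.4%, and neither held the E-box CACGTG, found in 7.15%.

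The common TET2 regions of Ccnd3 lay in 3 places: 3 from just before the first start to 16.7 kb past it, 2 further into the gene and 1 past the second start. The region before the gene (47503749 to 47504034) lay 1.02 kb outside the span. Replicates 1 and 2 had wild-type folds of 6.81 and 5.85 and tagged folds of 11.8 and 7.29, an order of replicates kept in the folds below. The next region (47508007 to 47508326) lay 3.10 kb into the gene, with wild-type folds of 11.9 and 6.95 and tagged folds of 10.3 and 7.75. Another (47521631 to 47522118) lay 16.7 kb in, with wild-type folds of 10.8 and 5.85 and tagged folds of 8.21 and 4.42.

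Within-list percentiles over these 3 regions ran from 19.8, in tagged replicate 2 at the last of them, to 90.1, in tagged replicate 1 at the first.

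Further into the gene, 2 common regions lay close together. The region at 47571593 to 47572086, 66.8 kb from the first start, had the highest percentile of the 6 in each target list, between 85.4 and 96.5, with wild-type folds of 12.4 and 7.88 and tagged folds of 12.8 and 10.00. Its neighbour at 47569021 to 47569276, 64.1 kb from the first start, had wild-type folds of 7.88 and 5.43 and tagged folds of 8.24 and 5.42. The last common region (47595373 to 47596012) lay 2.34 kb past the second start, with wild-type folds of 7.74 and 5.74 and tagged folds of 6.85 and 5.77. In all 6 regions replicate 1 had the higher fold in both target groups, and replicate 1 was also the longer list of each. By comparison, the median fold over the 4521 common regions of the series was 10.4 and 6.92 for wild type and 11.9 and 7.19 for tagged cells.

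The peaks of a common region are joined by overlap, which by itself keeps their summits near each other. The summits of the 4 target lists lay within 35 bp of each other at the region before the gene and within 207 bp at the last, with a median of 71.5 bp over the 6. Over all common regions of the series that distance had a median of 53 bp, with quartiles of 35 and 84 bp. The common regions at Ccnd3 were 256 to 640 bp wide.

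**Figure D2:**
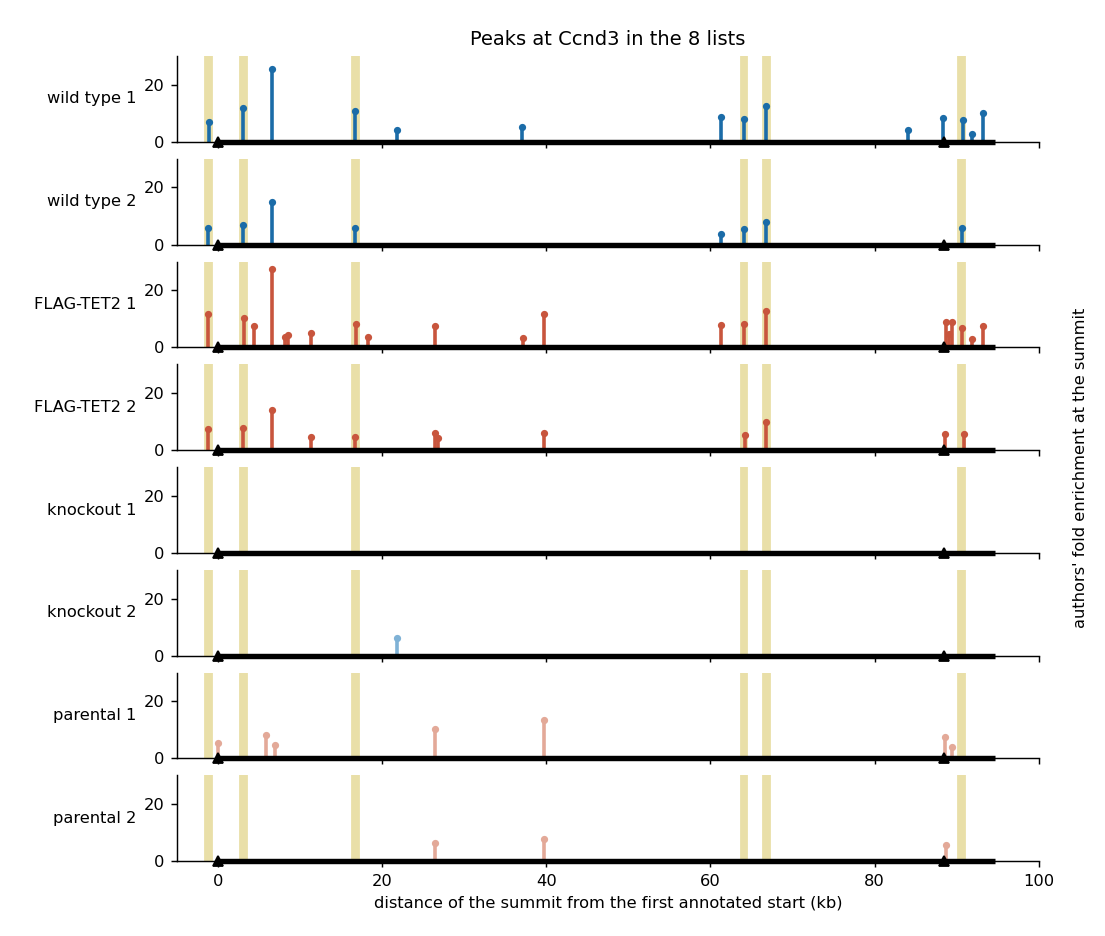
Peaks of the 8 lists at Ccnd3, placed by summit as the distance from the first annotated start (kb), with the authors' fold as height. The black bar is the gene span, triangles are the annotated starts and shaded columns the 6 common TET2 regions, which by definition are empty in the knockout and parental lists.

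Within each target list, the peak with the highest fold at any D-type cyclin gene lay in a region of Ccnd3 that is not common by the definition used. This region (47510860 to 47511972, 6.60 kb from the first start) had wild-type folds of 25.6 and 14.9 and tagged folds of 27.5 and 14.1. Its percentiles there ran from 90.5 to 99.4. Both knockout lists and parental replicate 2 had no peak in it. Parental replicate 1 had 2 peaks, with folds of 8.04 and 4.64. The higher overlapped a flank of the tagged replicate 1 peak alone, and the lower overlapped flanks of the peaks of all 4 target lists. The target summits lay within 70 bp of each other, while the parental summits lay 725 bp before and 305 bp after their mean position. With 200 bp windows around each summit in place of whole peaks the region was free of control peaks, and without parental replicate 1 Ccnd3 held 7 common regions. Over the series, 2.74% of merged regions had peaks in the 4 target lists and parental replicate 1 as the one control.

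The remaining Ccnd3 regions were found in fewer lists. In 10 regions 1 to 3 target lists and no control list had a peak, and tagged replicate 1, the longest list, was among them in 9. Both counts were near the series, where 43.6% of merged regions were of this kind and 83.6% of those had a peak in that list. The nearest to being common was at 47565975 to 47566557, with folds of 8.82 and 3.67 in wild-type replicates and 7.79 in tagged replicate 1. The wild-type replicate 2 peak there stood at percentile 1.90 of its list. Another, at 47598198 to 47598557 near the far end of the gene, had folds of 9.98 in wild-type replicate 1 and 7.61 in tagged replicate 1 and no peak in either replicate 2.

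Of the 7 Ccnd3 regions with a control peak, 6 had one in parental replicate 1 and 1 in a knockout list. Over the series 82.4% of regions with a control peak had a parental one, and the parental lists held 77.0% of all control peaks, so the share at Ccnd3 was near that of the series. In 2 regions within the gene body, both tagged and both parental lists had peaks and no list of the TET2 antibody did. At 47544692 to 47544898 the folds were 11.8 and 6.06 in tagged and 13.5 and 7.86 in parental replicates 1 and 2, with summits within 14 bp of each other. At 47531375 to 47531948 they were 7.61 and 6.06 in tagged and 10.4 and 6.30 in parental replicates. Both regions thus had FLAG resin peaks in cells without the tag as well, so their tagged peaks are not read as TET2 occupancy. Regions seen with the FLAG resin alone were 9 of the 23 at Ccnd3 and 50.7% of all merged regions.

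Ccnd2 encodes cyclin D2, the family member known for its part in granulosa cells and in B cell proliferation. Its span covers chromosome 6, 127125162 to 127152188 (27.0 kb). Its common TET2 region (127130263 to 127130943) lay inside the span, 5.44 kb from the lower-coordinate end by its midpoint. It had wild-type folds of 6.14 and 6.47 and tagged folds of 12.9 and 9.32, at percentiles of 63.0 and 69.2 and of 89.5 and 82.9. The summits lay within 38 bp for the tagged lists and within 118 bp for the wild-type lists, but 189 bp apart over all 4. The span otherwise held no peak of a tagged or parental list.

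The gene spans used here give no strand, and neither Ccnd1 nor Ccnd2 had a promoter window. Their ends are therefore named by coordinate, and which end holds the transcription start is not stated. At the other end of Ccnd2, 6 regions had peaks with the TET2 antibody alone, 3 of them with a knockout peak and 3 without. A region across the higher-coordinate end of the span (127152018 to 127152354) had folds of 7.42 in wild-type replicate 1 and 6.36 and 11.2 in knockout replicates 1 and 2. A region 1.35 kb beyond that end (127153539 to 127153864) had folds of 8.25 in wild-type replicate 1 and 8.56 in knockout replicate 2. The third with a knockout peak (127151523 to 127151930) had one in knockout replicate 2 alone, with a fold of 6.88. Of those without, 127152476 to 127152796 and 127154600 to 127154816 had a peak in wild-type replicate 1 alone, the longest list of that antibody, with folds of 7.69 and 8.06. A region 2.78 kb beyond it (127154972 to 127155167) was the only one at this end with peaks in both wild-type lists and in no knockout list, with folds of 5.42 and 4.48 and percentiles of 25.4 and 6.67. Regions found with the TET2 antibody alone were 6 of the 9 at Ccnd2, 2 of the 6 at Ccnd1 and 2 of the 23 at Ccnd3, against 12.4% of all merged regions.

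**Figure D3:**
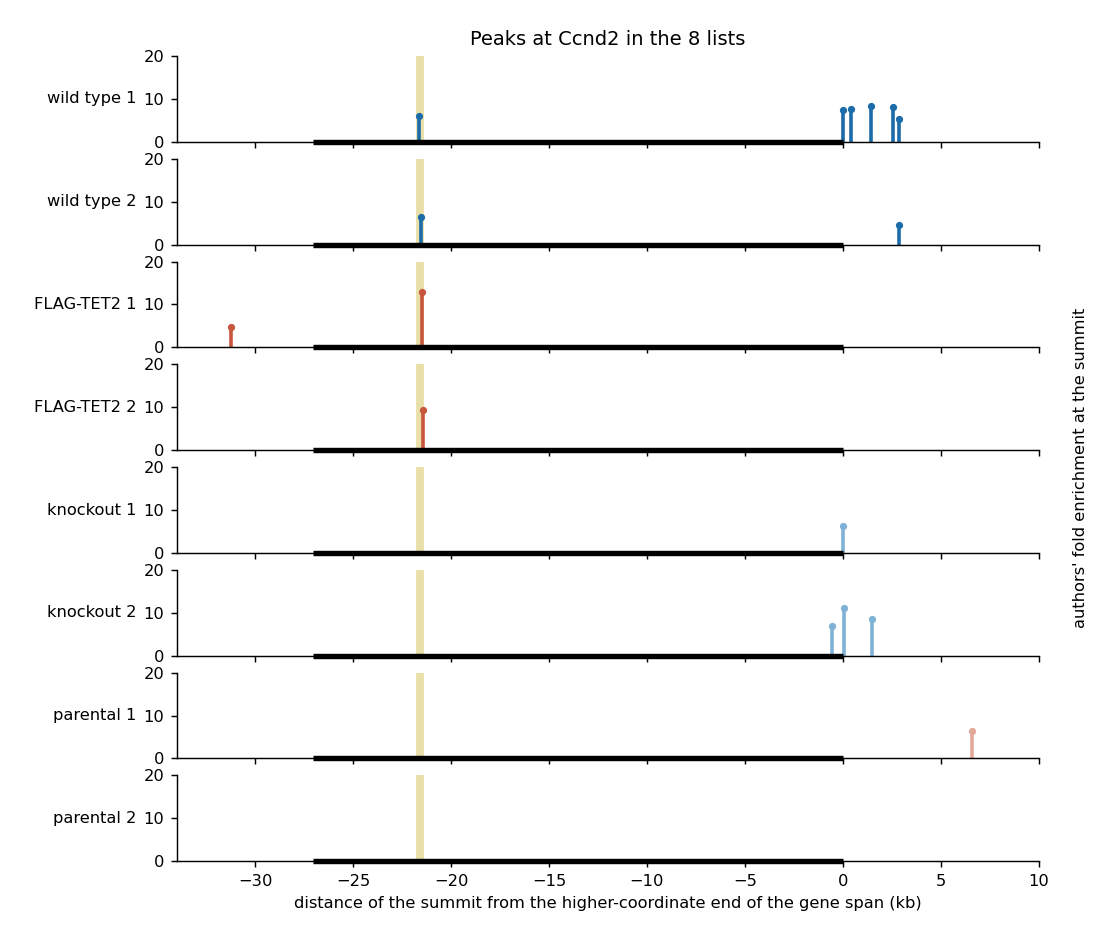
Peaks of the 8 lists at Ccnd2, placed by summit as the distance from the higher-coordinate end of the gene span (kb), with the authors' fold as height. The shaded column is the common TET2 region, with folds of 6.14 to 12.9, and the peaks around 0 kb occur in wild-type and knockout lists, not in tagged or parental lists.

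Ccnd1 encodes cyclin D1, the member most often amplified in cancers. Its span covers chromosome 7, 144929931 to 144939831 (9.90 kb). Its peaks with the highest folds were present in target and control lists alike. A region 2.38 kb beyond the higher-coordinate end (144942208 to 144943661) had wild-type folds of 17.3 and 10.3 and knockout folds of 12.3 and 17.7. With the FLAG resin the folds were 8.74 and 8.32 in tagged and 6.19 and 5.07 in parental replicates. The summits of the 4 lists of the TET2 antibody lay within 31 bp of each other, and those of the FLAG resin, taking the higher peak where a list had 2, within 173 bp. Percentiles in replicates 1 and 2 were 96.8 and 90.8 for wild type and 86.7 and 96.6 for knockout. With the FLAG resin they were lower, at 64.4 and 70.4 for tagged and 28.8 and 8.31 for parental lists.

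A second region, 1.35 kb beyond the same end (144941183 to 144942051), was also in all 8 lists. Its highest folds per list were 13.2 and 8.41 in wild-type, 5.80 and 8.80 in knockout, 7.98 and 5.49 in tagged and 5.42 and 5.38 in parental replicates 1 and 2. The summits of these peaks were spread over 577 bp and did not mix. Those of the 4 target lists lay between 144941678 and 144941843, and those of the 4 control lists between 144941266 and 144941437. Lower second peaks crossed that line, with summits at 144941438 in tagged replicate 2 and at 144941706 in parental replicate 1. This split was chosen after the values were seen and was not tested. Regions in all 8 lists made up 0.319% of the merged regions, and these 2 were the only such regions at the D-type cyclin genes. A further region (144939125 to 144939891), across the higher-coordinate end of the span, had folds of 6.14 and 7.19 in wild-type replicates, 8.36 in tagged replicate 1 and 8.12 and 5.69 in parental replicates, with no knockout peak. Inside the span another peak was found, in tagged replicate 1 alone, with a fold of 6.47.

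**Figure D4:**
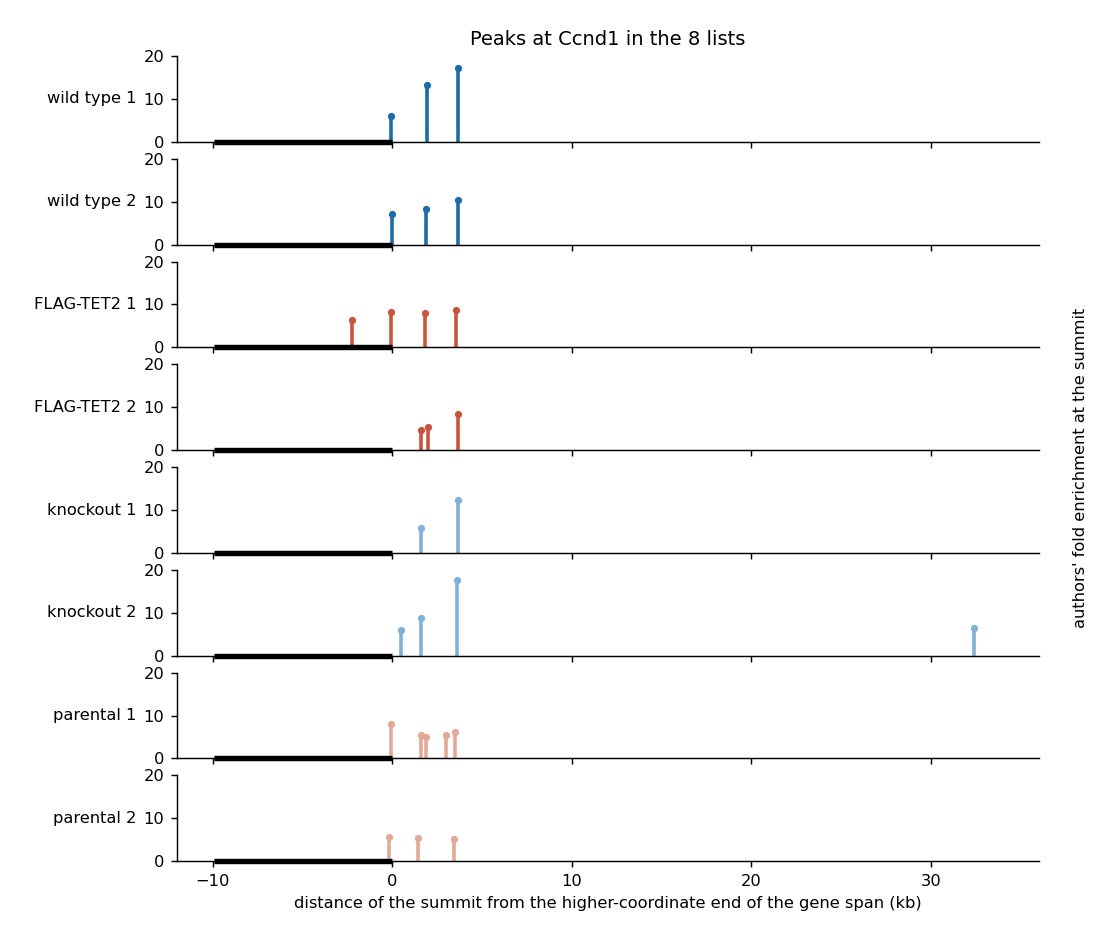
Peaks of the 8 lists at Ccnd1, placed by summit as the distance from the higher-coordinate end of the gene span (kb), with the authors' fold as height. The 2 regions beyond the end, at about 2 and 3 to 4 kb, carry peaks in every list, and no region is common.

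The window of 50 kb took in few distant peaks. The farthest peak counted lay 32.3 kb from Ccnd1, in knockout replicate 2 alone, with a fold of 6.55. The nearest region left out lay 81.5 kb from Ccnd2, with folds of 5.33 in tagged replicate 1 and 5.15 in knockout replicate 2. At Ccnd3 no region was lost to the distance. Neighbouring genes held few common regions: LTO1, whose span overlaps the lower-coordinate end of Ccnd1, held 1, and Tpcn2, Tigar, Parp11, Taf8 and Bysl held 0 each. The count for Taf8 rests on the nearest-span rule. Its span ends at 47502321, a gap of 2.73 kb from Ccnd3, and the common region at 47503749 to 47504034 lies in that gap. This region was counted for Ccnd3 alone, as the nearer gene. Bysl overlaps the end of the Ccnd3 span, but no Ccnd3 region touched it, and leaving out peaks over a second gene kept the count at 6.

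Against all 17169 genes with any merged region, 17.3% held at least 1 common region, 4.23% at least 2, 0.513% at least 4 and 0.0699%, or 12 genes, 6 or more. Ccnd3 was 1 of 7 genes with exactly 6, and 5 genes held more. The span of Ccnd3 is long, and longer spans held more regions, with a median of 5 merged regions for spans of 80 to 120 kb against 3 over all genes. Of the 1169 genes with a span of 80 to 120 kb, 29.9% held at least 1 common region and 0.0855%, or Ccnd3 alone, held 6 or more. These ranks describe the choice of the gene and are not tested.

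**Figure D5:**
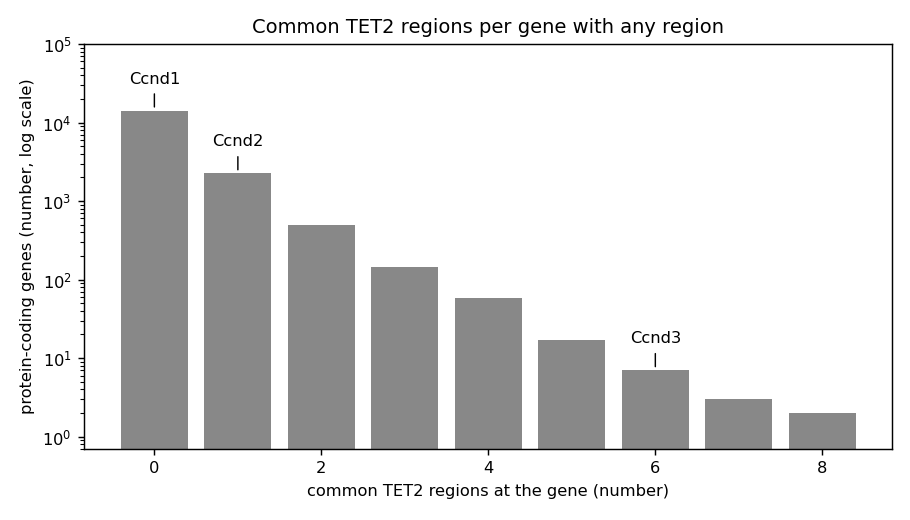
Number of protein-coding genes (vertical axis, log scale) by their number of common TET2 regions (horizontal axis), for genes with any merged region. Ccnd1 is among the 14192 genes with 0, Ccnd2 among the 2250 with 1 and Ccnd3 among the 7 with 6.

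Genes with a like pattern of peak numbers were sought by the smallest sum, over the 8 lists, of the absolute differences in peak number. Nearest to Ccnd3 were Etnk1 and Trim71, both with a sum of 6, and Arid1b with 7. They held 4, 2 and 4 common regions. Nearest to Ccnd2 were Tekt5 (sum 3), Cog6 and Nfkb1 (sum 4 each, a value that 13 genes shared), with 0, 0 and 1 common regions. Nearest to Ccnd1 were Spdya (sum 4), Eif4g2 and Cnnm1 (sum 5 each, a value that 5 genes shared), all with 0 common regions. With 8 small counts per gene, this likeness is a description and depends on list length.

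Of 35 other genes of the G1 and cell cycle machinery, all with a merged region, 6 (17.1%) held a common region, near the 17.3% of all genes, and their median number was 0. Among the cyclin D kinases and their INK4 inhibitors, 1 of 6 did. Of the kinases that D-type cyclins activate, Cdk4 held 0 common regions and Cdk6 held 3. The leading one at Cdk6 (chromosome 5, 3453891 to 3454419), inside its span, had wild-type folds of 26.9 and 17.2 and tagged folds of 30.4 and 17.9. Cdkn1a, which encodes the CDK inhibitor p21, was 1 of 3 CIP/KIP inhibitors and held 2. Its leading region lay 17.7 kb from the gene, with wild-type folds of 15.7 and 9.93 and tagged folds of 16.1 and 9.23.

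The other groups of that machinery gave 1 gene each. Rb1, which encodes the RB protein itself, was 1 of 3 pocket protein genes, with wild-type folds of 9.34 and 5.94 and tagged folds of 19.0 and 6.13 inside its span. E2f8, an E2F repressor, was 1 of 10 E2F and DP genes, with a region outside its span. Ccne2, which encodes cyclin E2, was 1 of 8 later cyclins and kinases, and Gsk3b, which encodes a GSK-3 kinase, 1 of 5 genes of cyclin D turnover. The count depended on the controls. Without parental replicate 1 it was 11, where 26.4% of all genes held a common region, and it was 15 when knockout lists alone served as controls, where 33.4% did.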

How the data were processed

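Of 10 libraries, the 8 immunoprecipitations with a peak list were used; the input and IgG libraries were not analysed here. Per the submitters' processing notes the tools were Trimmomatic, Bowtie2, MACS2, DiffBind and DESeq2 and the build mm10, with no role or order given. The deposited lists give per peak a score, a fold enrichment (ratio), −log10 p and −log10 q values and a summit, all the authors' own. The deposited score equals −log10 q scaled and cut to a whole number. Replicates were not pooled, since each deposited list is of 1 library.

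Peaks on the 21 assembled chromosomes were merged at 1 bp or more of overlap and given to protein-coding spans of RefSeq GRCm38.p6 (Python 3.11.15, pandas 2.3.3). Merging and assignment were tested on simulated intervals against bedtools 2.31.1. Of the D-type cyclin genes, 1 matched the promoter table, Ccnd3; Ccnd1 and Ccnd2 have no entry there. No genome sequence was used. Groups came from sample titles. Named genes were the members, their neighbours, cell cycle genes with a common region and the 3 genes most like each member in peak numbers, ties broken by fold; other regions described were picked with their values in view. Members, lists and alternatives were chosen with earlier results of these data known. No test was run. Alternatives were a −log10 q minimum of 5, summit windows of 200 bp, lists shortened to 2259 peaks, a 10 kb window, no shared spans, other control sets and each list left out.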

Additional observations from a re-analysis of the deposited data

How the results depend on the processing

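The common regions numbered 0 at Ccnd1 under every alternative run. At Ccnd3 they numbered 5 with −log10 q of at least 5, and 6 or 7 otherwise, and at Ccnd2 1, except with each list shortened to its 2259 leading peaks. That setting left 0 common regions at Ccnd2, 0 at Ccnd3 and 0 in all. The leading Ccnd3 region was then missed by 1 target list, since its peak ranked 2689 in tagged replicate 2. Shortening left 2, 0 and 4 target peaks at Ccnd1, Ccnd2 and Ccnd3 (6 in all), 3, 2 and 0 control peaks, and 1 cell cycle gene with a common region. The share of all genes or regions that stayed common with shortened lists is not given here. These falls are therefore not read as particular to these genes. With −log10 q of at least 5, Ccnd1 held 9 control peaks in place of 14, and 12 target peaks in place of 13. Leaving out each list in turn gave 7 to 8 common regions over the 3 genes and 6 to 11 cell cycle genes, the highest without parental replicate 1. When knockout lists alone served as controls the cell cycle genes numbered 15. The median distance between target summits, over the common regions of Ccnd2 and Ccnd3 together, was 80 bp. It ran from 57 to 80 bp over the lists left out, and was 93 bp with −log10 q of at least 5. Leaving out a target list also leaves fewer summits per region. Parental lists as the only controls, and other settings for the summit distance, were chosen after seeing the data. No paired analysis was possible because the results come from no test, the genes having been chosen on these lists. With 2 lists in each group and unknown depth, a missing peak cannot be told apart from one below detection.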

Other observations

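Beyond the 50 kb window, the stretch without protein-coding genes on the higher-coordinate side of Ccnd2 held 6 regions nearest to that gene, and 1 of them was a common TET2 region. It lay 97.8 kb from Ccnd2 (chromosome 6, 127249984 to 127250469), with the authors' wild-type folds of 9.02 and 7.92 and tagged folds of 20.5 and 10.6. All 4 values exceeded those of the common region inside Ccnd2 in the same list, for wild type by 9.02 against 6.14 and 7.92 against 6.47. The corresponding stretch beside Ccnd1 held 1 region, 90.9 kb away. It had peaks with the TET2 antibody alone, with wild-type folds of 7.25 and 3.38 and knockout folds of up to 10.8. Both were singled out with their values in view.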
